A study of Mus musculus with 12 samples.

Results

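The transcripts described are those of 10 receptors through which activins, bone morphogenetic proteins (BMPs) and transforming growth factor beta (TGF-beta) signal: the type I receptors Acvr1, Acvr1b, Bmpr1a, Bmpr1b and Tgfbr1, the type II receptors Acvr2a, Acvr2b, Bmpr2 and Tgfbr2, and the co-receptor Tgfbr3, also called betaglycan. They were taken by gene name from the array annotation, with all their probes, which gave 19 of 39429 probes and 10 of the 18559 genes and transcripts tested. Whole ovaries came from 2-month-old females of the inbred strain C57BL/6J, 12 in all and 4 per diet group. Control mice (C1 to C4) were given a normal diet, early-life mice (E1 to E4) a diet deficient in vitamin D in early life only, and peripubertal mice (P1 to P4) the deficient diet in the peripubertal period only. The mice were not engineered, no further agent is named in the labels, and the whole ovary was minced, so that every value is a mixture over its cell types.

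Ligands of this family bind a pair of serine/threonine kinase receptors. The type II receptor phosphorylates the type I receptor, which in turn phosphorylates Smad proteins that enter the nucleus with Smad4. In the ovary, oocyte-derived Gdf9 and Bmp15 and the activins and inhibins of granulosa cells use these receptors in follicle growth, ovulation rate and the control of steroid production.

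The values are log2 normalised intensities from 6 two-colour arrays, and both samples on an array belong to the same group: C1, C3 and the other odd numbers were labelled with Cy3, the even numbers with Cy5. The median probe signal of a sample was 6.85 to 9.49 times its background, and the share of probes well above background was 58.3% to 64.6%. All peripubertal arrays were on a slide of their own, apart from the slide that held control and early life, and the effects of that slide and of the peripubertal diet cannot be told apart. The group names used here are those of the scanner files. In the value table deposited for the same samples, the control columns held the values of the early-life arrays and the reverse (r at least 0.99977 across features), so the sign of each early-life minus control difference depends on which naming is right, and an exchange turns each comparison of the peripubertal group with one of these groups into that with the other. The F test over the 3 groups does not depend on it. The labelled tissue was checked against its markers: all 8 granulosa cell and all 8 oocyte markers, and Star and Lhcgr of luteal cells, were well above background in enough samples to be tested. Of the 6 theca cell markers 4 could be tested. All 8 oviduct epithelium markers and 2 of 7 pituitary markers (Pomc and Lhb) could be tested too, so detection alone does not single out the ovary.

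Of the 19 probes, 17 were well above background in at least 1 sample, 15 in all 12 samples and 2 in none. The latter are 1 of 3 probes of Acvr1 and 1 of 4 of Tgfbr1, both designed to transcripts with Ensembl identifiers. Each gene was tested through its brightest probe with enough values, and the other probes are given beside it. To show what was read on the array, the first 30 of the 60 bases of the probes on which the largest differences rest are printed 5′ to 3′. Their positions refer to build mm9, and no exon or UTR annotation of that build was used here. The Acvr2b probe lies at chr9:119342560-119342619 on the plus strand, the tested Acvr1 probe at chr2:58298937-58298996 and its partner at chr2:58299580-58299639, both on the minus strand. The tested Bmpr1b probe lies at chr3:141500694-141500753 and its partner at chr3:141503374-141503433, both on the minus strand and 2680 bases apart on the transcript.
Acvr2b: ctaaagagtccagcatctaagcccgggaca
Acvr1, tested: acgctgtggggggaaatgcatcttcttcgg
Acvr1, partner: attaagacagtggctctctgcgtatctttc
Bmpr1b, tested: atttatggaagcatgtacattgtgaactcc
Bmpr1b, partner: atcatggctttctgaggaggagaaactgtt

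No receptor passed an adjusted p of 0.05 (limma, Benjamini-Hochberg over all genes) in any comparison. For early life minus control 4 genes passed, which is 0.0216% of those tested; for peripubertal minus control 50 passed (0.269%), for peripubertal minus early life 489 (2.63%), and in the F test 90 (0.485%). These totals rest on few samples: for peripubertal minus early life, 2 genes passed without E1, 3 without E3 and 1585 without E2. At an unadjusted p under 0.05, 3 of 10 receptors were called in early life against control (Acvr1, Acvr2b and Bmpr1b; 13.9% of all genes), 2 of 10 in peripubertal against control (Acvr2b and Bmpr1a; 11.4%), 2 of 10 in peripubertal against early life (Bmpr1a and Bmpr2; 23.9%) and 3 of 10 in the F test (Acvr1, Acvr2b and Bmpr1a; 20.2%). The median difference of the 10 receptors was 0.14, 0.08 and -0.07 in the 3 comparisons, in that order, against -0.02, 0.01 and 0.03 over all genes. The smallest adjusted p of a receptor was that of Acvr2b in the F test, 0.0867.

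**Figure D1:**
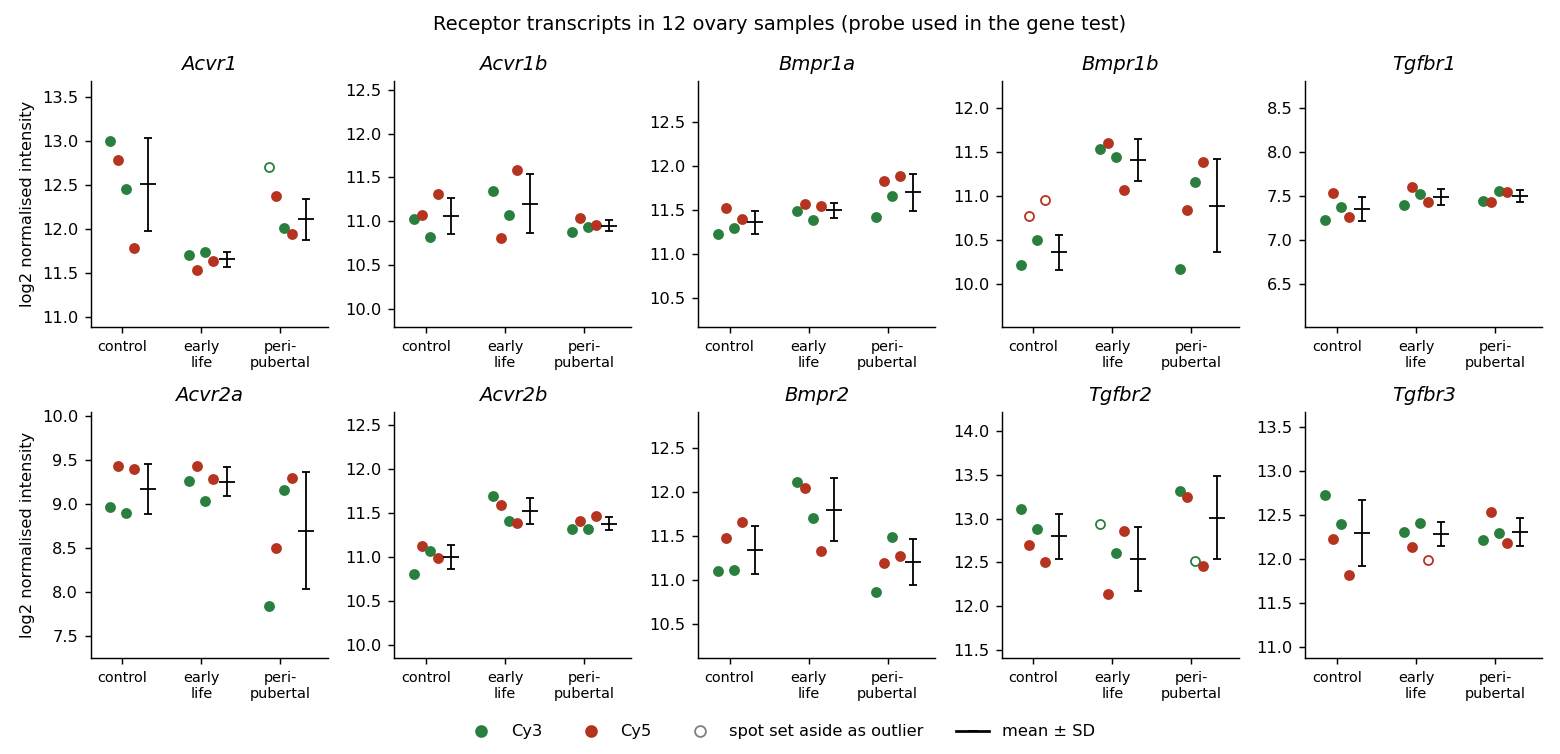
Log2 normalised intensity of each receptor's tested probe (vertical axes, each spanning 2.8 log2 units) in the 4 samples of each group, green for Cy3 and red for Cy5, with open points for spots set aside as outliers and bars for mean ± SD of the filled points. Acvr2b is lowest in the 4 control samples and Acvr1 in the 4 early-life samples, while Acvr2a and Bmpr1b spread widest in the peripubertal group.

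Among the type II receptors, Acvr2b, a high-affinity receptor of activins that also binds Gdf11 and nodal, set the control samples apart. It measured 10.80, 11.12, 11.06 and 10.99 in C1 to C4, 11.69, 11.59, 11.41 and 11.38 in E1 to E4, and 11.31, 11.41, 11.31 and 11.47 in P1 to P4. Every sample of both deficiency groups lay above every control sample, while the deficiency groups overlapped each other. Group means were 10.99 ± 0.14 (SD, n = 4) in control, 11.52 ± 0.15 (SD, n = 4) after early-life deficiency and 11.37 ± 0.08 (SD, n = 4) after peripubertal deficiency. Early life minus control was 0.53 ± 0.11 (SE; 95% interval 0.28 to 0.77; limma adjusted p = 0.166), a 1.44-fold difference, and peripubertal minus control was 0.38 ± 0.11 (adjusted p = 0.256), 1.30-fold. Peripubertal minus early life was -0.14 ± 0.11, within the spread. If the names of the control and early-life arrays were exchanged, the odd group out would be the early-life group, lower by the same 0.53 than control, and peripubertal minus control would be -0.14. Acvr2b has 1 probe, so no other probe bears on these values. Without the array as a block its early-life difference passed, with an adjusted p of 0.0447.

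Acvr2a, the other activin type II receptor, also serves BMPs and inhibin, which competes with activin for it. Its tested probe measured 8.96, 9.43, 8.89 and 9.40 in C1 to C4, 9.26, 9.43, 9.03 and 9.28 in E1 to E4, and 7.84, 8.50, 9.15 and 9.29 in P1 to P4. P1 and P2, which shared an array, lay under all other samples, and P3 and P4 lay within the range of the controls. Peripubertal minus control was -0.47 ± 0.26 (limma adjusted p = 0.533), and without the array of P1 and P2 it was 0.05 ± 0.13. Early life minus control was 0.08 ± 0.26. The second probe, 1105 bases away on the transcript, measured 7.65 to 7.88 in the peripubertal samples and 7.63 to 7.75 in the controls, with P1 and P2 inside the range of the others, and its peripubertal minus control difference was 0.02 ± 0.08. The low values of P1 and P2 thus appeared in 1 of 2 probes, and the probes' correlation over 12 samples, with the mean of each dye taken out as in all correlations given here, was 0.48. The second probe was dimmer (mean 7.74 against 9.04), and whether it could show a drop of that size was not tested.

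Bmpr2, the type II receptor that BMPs, Gdf9 and Bmp15 use, measured 11.10, 11.48, 11.12 and 11.66 in C1 to C4, 12.11, 12.05, 11.70 and 11.33 in E1 to E4, and 10.86, 11.20, 11.49 and 11.27 in P1 to P4. E1 to E3 were the 3 highest of the 12 samples, and E4 lay among the rest. Peripubertal minus early life was -0.60 ± 0.24 (limma adjusted p = 0.170), a 1.51-fold difference, and early life minus control was 0.46 ± 0.24 (adjusted p = 0.409). The control and peripubertal groups overlapped, with a difference of -0.14 ± 0.24.

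Tgfbr2, which binds TGF-beta and recruits Tgfbr1, measured 13.11, 12.70, 12.88 and 12.50 in C1 to C4, 12.14, 12.61 and 12.86 in E2 to E4, and 13.32, 13.25 and 12.46 in P1, P2 and P4. The spots of E1 and P3 were set aside as outliers by the scanner software. P1 and P2 were the highest samples and P4 the second lowest, so the peripubertal group spanned most of the range, and the groups overlapped in all comparisons. Peripubertal minus early life was 0.46 ± 0.27 (limma adjusted p = 0.335), and peripubertal minus control was 0.22 ± 0.26. The second Tgfbr2 probe ran parallel (r = 0.92 over 10 samples) and gave 0.35 ± 0.15 for peripubertal minus early life and 0.22 ± 0.15 for peripubertal minus control. Without the array of P1 and P2, only this second probe had enough values, and its peripubertal minus control difference was -0.07 ± 0.11.

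Among the type I receptors, Acvr1, which transmits BMP and AMH signals, was lowest in the early-life samples on its tested probe. It measured 12.99, 12.78, 12.45 and 11.78 in C1 to C4, 11.70, 11.53, 11.74 and 11.64 in E1 to E4, and 12.38, 12.003 and 11.94 in P2 to P4. The spot of P1, set aside as an outlier, read 12.70. All early-life samples lay under all samples of the other groups, with C4 closest to them. The means were 12.50 ± 0.53 (SD, n = 4) in control, 11.65 ± 0.09 (SD, n = 4) after early-life deficiency and 12.11 ± 0.24 (SD, n = 3) after peripubertal deficiency, so the control group varied most. Early life minus control was -0.85 ± 0.24 (SE; 95% interval -1.41 to -0.30; limma adjusted p = 0.235), a 1.81-fold difference, and peripubertal minus early life was 0.52 ± 0.26 (adjusted p = 0.256). The second probe, 643 bases away, correlated with it at 0.94 over 11 samples and gave -0.55 ± 0.25 for early life minus control, with C4 at 10.90 inside the early-life range of 10.70 to 10.94. For peripubertal minus early life it gave 0.35 ± 0.25 (limma adjusted p = 0.431). P3 at 10.70 and P4 at 10.88 did not lie above that range, so these groups overlapped there. With the arrays exchanged, control would be the low group, and peripubertal minus control would be 0.52.

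Bmpr1b, a BMP receptor of granulosa cells and oocytes that carries the Booroola fecundity variant in sheep, differed most in size but was incompletely measured. Its tested probe gave 10.22 in C1 and 10.50 in C3, 11.53, 11.61, 11.44 and 11.06 in E1 to E4, and 10.17, 10.84, 11.15 and 11.39 in P1 to P4. The spots of C2 and C4, set aside as outliers, read 10.77 and 10.95, also under every early-life sample. Early life minus control was 0.97 ± 0.34 (SE; 95% interval 0.20 to 1.75; limma adjusted p = 0.292) with 2 control values, and 0.80 ± 0.27 (adjusted p = 0.277) with the outlier spots kept. The second probe of the same transcript measured 10.33, 10.80, 10.28 and 10.77 in C1 to C4 and 10.83 and 10.53 in E3 and E4, which overlap, and gave 0.14 ± 0.29. The spots of E1 and E2, set aside on that probe, read 10.28 and 10.70, also within the control range. The probes correlated at 0.90 over the 8 samples with both values and at 0.57 over all 12 with outlier spots kept, and they disagree on the early-life group.
P1 was the lowest sample on both Bmpr1b probes, with 9.90 on the second, and P3 and P4 lay higher than P1 and P2 on both. Peripubertal minus control was 0.45 ± 0.34 on the tested probe and -0.16 ± 0.23 on the other, so the sign was not the same on both. Without the array of P1 and P2 the tested probe gave 0.92 ± 0.24 (limma adjusted p = 0.235).

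Bmpr1a, the more widely expressed BMP type I receptor, measured 11.22, 11.52, 11.29 and 11.39 in C1 to C4, 11.48, 11.57, 11.38 and 11.54 in E1 to E4, and 11.42, 11.83, 11.66 and 11.89 in P1 to P4. P2 to P4 were the 3 highest samples and P1 lay inside the control range. Within each dye, both peripubertal samples lay above both controls. Peripubertal minus control was 0.34 ± 0.09 (SE; 95% interval 0.14 to 0.54; limma adjusted p = 0.224), a 1.27-fold difference, and peripubertal minus early life was 0.20 ± 0.09 (adjusted p = 0.207). Early life minus control was 0.14 ± 0.09, and Bmpr1a was thus higher in the peripubertal group under either naming of the other groups, without passing the test.

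Acvr1b, the main type I receptor for activin, had overlapping groups and a narrow peripubertal group. It measured 11.02, 11.07, 10.82 and 11.32 in C1 to C4, 11.35, 10.81, 11.07 and 11.58 in E1 to E4, and 10.88, 11.04, 10.94 and 10.96 in P1 to P4. E4 and E1 were the highest samples and E2 the lowest. Its differences were 0.15 ± 0.20 for early life minus control and -0.10 ± 0.20 for peripubertal minus control, and their 95% intervals, -0.30 to 0.59 and -0.55 to 0.34, leave room for changes of either sign. Its second probe gave 0.11 ± 0.10 for early life minus control and 0.001 ± 0.10 for peripubertal minus control.

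Tgfbr1, the type I partner of Tgfbr2, had 4 probes. The brightest one measured 11.38, 11.95, 11.78 and 11.64 in C1 to C4 and 11.93, 12.07, 12.06 and 11.85 in E1 to E4, but of the peripubertal spots only P3 (12.08) was not set aside, so the gene was tested through the next probe. That probe measured 7.23 to 7.53 in control, 7.40 to 7.61 in early-life and 7.43 to 7.56 in peripubertal samples, and the groups overlapped. Early life minus control was 0.14 ± 0.10 (limma adjusted p = 0.533) and peripubertal minus control 0.15 ± 0.10 (adjusted p = 0.634). With outlier spots kept, the brightest probe gave 0.29 ± 0.17 and 0.31 ± 0.17, and the probes correlated at 0.94 over 9 samples. A dimmer probe, well above background in 4 of 12 samples, gave 0.34 ± 0.20 and 0.29 ± 0.20.

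Tgfbr3, the co-receptor that presents TGF-beta to its receptors and lets inhibin oppose activin, had the smallest differences from control among the 10 receptors. It measured 12.73, 12.23, 12.40 and 11.82 in C1 to C4, 12.31, 12.14 and 12.41 in E1 to E3, and 12.22, 12.54, 12.30 and 12.19 in P1 to P4. The spot of E4, set aside as an outlier, read 11.99. The highest and the lowest sample were both controls, C1 and C4, and all other samples lay between them. The differences were -0.04 ± 0.21, 0.02 ± 0.19 and 0.05 ± 0.21 in the 3 comparisons, with 95% intervals from -0.51 to 0.43, -0.42 to 0.46 and -0.41 to 0.52.

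**Figure D2:**
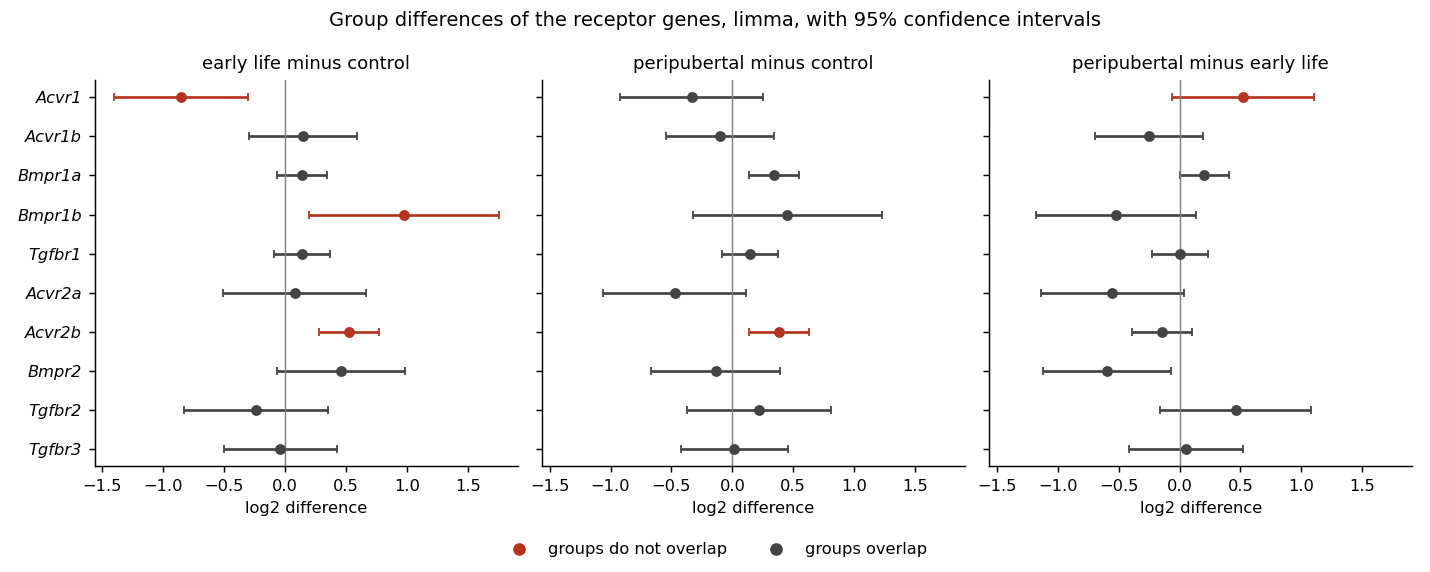
Log2 differences of the 10 receptors in the 3 comparisons (horizontal axis; points are limma estimates and bars 95% confidence intervals), red where no sample of one group reached into the range of the other. Red points are Acvr1, Acvr2b and Bmpr1b for early life minus control, Acvr2b for peripubertal minus control and Acvr1 for peripubertal minus early life.

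The plot of differences marks the receptors whose groups did not overlap. For early life against control these were 3 of 10 (Acvr2b and Bmpr1b higher, Acvr1 lower), where 13.6% of all genes had groups apart, 4.24% higher and 9.33% lower. Of these receptors, Bmpr1b had only 2 control values in the test. On the second probes of Bmpr1b and Acvr1 the groups overlapped, and Acvr2b has 1 probe. For peripubertal against control it was Acvr2b alone, 1 of 10, against 11.3% of all genes (6.01% higher and 5.26% lower). For peripubertal against early life it was Acvr1 alone, 1 of 10, against 20.7% (14.2% higher and 6.51% lower). On the second probe of Acvr1 these groups overlapped too. The shares in both comparisons of the peripubertal group are thus near or under those of all genes.

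**Figure D3:**
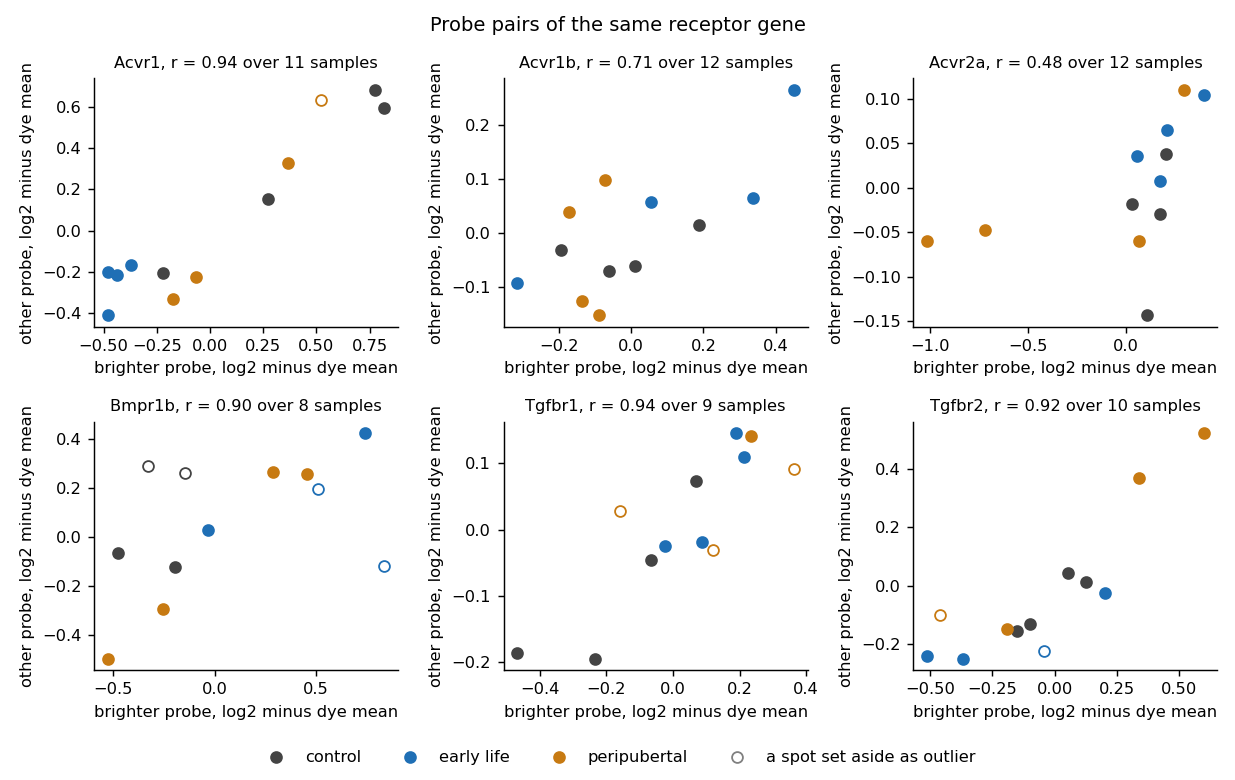
Log2 intensity minus the mean of its dye for the brighter probe (horizontal axis) against another probe of the same gene (vertical axis) for the 6 receptors with several probes, each point being 1 sample, coloured by group and open where either spot was set aside. The probes of Acvr1, Tgfbr1 and Tgfbr2 run in parallel (r of 0.94, 0.94 and 0.92), those of Acvr2a less so (0.48). The early-life points of Bmpr1b stand apart from the control points on the brighter probe only. They mix with the peripubertal points on both probes.

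Some receptors went up and down together from sample to sample. The correlation of Bmpr1b with Bmpr2 was 0.90 over 10 samples, that of Acvr1 with Bmpr1b -0.87 over 9, and that of Bmpr2 with Tgfbr2 -0.79 over 10. The Bmpr1b correlations, here and with the cell type markers below, rest on its tested probe, without C2 and C4. Its second probe did not show the higher early-life level (0.14 ± 0.29 for early life minus control). Of 45 pairs, 3 had a correlation over 0.7 and 5 under -0.7, with a median of 0.02. These correlations describe 12 samples that share arrays, slides and groups, and no test is attached to them. C1 and P2 were among the higher samples for Acvr1 and Tgfbr2 and among the lower ones for Bmpr1b and Bmpr2, as was P1, whose Acvr1 spot was set aside.

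Cell type markers ran along with these receptors. The summed level of 6 smooth muscle markers, given as the mean log2 deviation from the average sample, was -0.53 to 0.78 in control, -0.61 to -0.31 in early-life and -0.36 to 0.87 in peripubertal samples. The groups overlapped, with C1, P1 and P2 highest and C4 and P4 inside the early-life range. Over the samples with values it correlated with Acvr1 at 0.84 and Tgfbr2 at 0.85, and with Bmpr1b at -0.83 and Bmpr2 at -0.71. The 6 macrophage markers behaved alike, with 0.81 for Acvr1, 0.78 for Tgfbr2, -0.76 for Bmpr1b and -0.78 for Bmpr2; their summed level was -0.82 to -0.41 in the early-life group, -0.47 to 0.58 in control and 0.19 to 0.79 in the peripubertal group. The mean of the 7 endothelial markers was also lowest in the early-life group, at -0.26 to -0.09, against -0.03 to 0.11 in control, but not each marker was: Pecam1 differed by 0.28 between early life and control, and Kdr by -0.08 between peripubertal and early life. Their part in the values of Acvr1, Bmpr1b, Bmpr2 and Tgfbr2 was not tested, and in whole ovaries fewer cells of a type and less RNA per cell cannot be told apart.

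Acvr1b correlated instead with the 8 oviduct epithelium markers, at 0.87 over 12 samples. Their summed level was 2.43 in E1, 1.54 in E3 and 2.80 in E4 but -0.46 in E2, the early-life sample with the lowest Acvr1b, -1.28 to 0.87 in control and -1.76 to -0.91 in the peripubertal group. The 6 ovarian surface epithelium markers gave 0.88. Acvr2b correlated about equally with the 5 adipocyte markers (0.71) and the 4 red blood cell markers tested (0.69). The adipocyte markers had summed levels of 0.23 to 2.76 in the early-life, -2.33 to -0.22 in the control and -1.51 to 1.00 in the peripubertal group. Not each of them was higher in the early-life group: Plin1 differed by -0.04 from control, and the others tested by 2.14 (Cidec) to 2.96 (Cfd). The 4 theca cell markers tested correlated with Bmpr1a at 0.74 and with Tgfbr1 at 0.69. Their summed level was -0.05 to 0.61 in the peripubertal, -0.50 to 0.46 in the control and -0.36 to 0.07 in the early-life group. The oocyte list had correlations of 0.63 for Bmpr2 and for Tgfbr1 and 0.62 for Bmpr1b, and the granulosa list 0.13 for Bmpr1b. Groups overlapped on the theca, oocyte and granulosa lists. Values of similar size came from other lists. The 2 pituitary markers tested gave -0.73 for Bmpr1b and -0.68 for Tgfbr1, and the red blood cell markers -0.70 for Acvr1. The smooth muscle markers also gave 0.68 for Tgfbr3 and -0.66 for Acvr2a, and the macrophage markers -0.65 for Acvr2a. The part of these cell types in the receptor values was not tested.

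For each receptor, the 2 genes most alike over the samples were found among those measured in the same samples. Acvr1 was most like Adamts7 (r = 0.96) and Palm (0.96), Tgfbr2 most like Slc24a3 (0.97) and Fes (0.96), and Acvr1b most like Dzank1 (0.97). Bmpr2 was close to Dst (0.95), Acvr2b to Zfp937 (0.93), and Bmpr1a to Zfp119b (0.95) and Cyp2c70 (0.94). No receptor was among the 2 nearest of another. With 10 to 12 samples and so many genes to choose from, such values are descriptions of these samples.

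The promoters of receptors that set groups or samples apart are printed to show what kind of start they have. Windows of 250 bases upstream of the start, from RefSeq (GRCm38.p6), were found for 9 of the 10 genes; Tgfbr3 was not matched. Acvr1 lies on the minus strand at chr2:58566829-58567078, Acvr2b on the plus strand at chr9:119401928-119402177, Bmpr1a on the minus strand at chr14:34502547-34502796 and 1 of 3 Bmpr1b starts on the minus strand at chr3:141931589-141931838. Capitals mark the GC box GGGCGG and the nuclear receptor half-site AGGTCA, each on either strand, which the vitamin D receptor and its partner bind as a repeat.
Acvr1: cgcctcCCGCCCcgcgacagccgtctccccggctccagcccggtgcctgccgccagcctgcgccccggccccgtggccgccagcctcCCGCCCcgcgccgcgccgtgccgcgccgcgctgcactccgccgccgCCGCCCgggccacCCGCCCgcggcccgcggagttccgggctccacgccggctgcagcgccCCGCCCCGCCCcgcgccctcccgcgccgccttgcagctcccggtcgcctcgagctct
Acvr2b: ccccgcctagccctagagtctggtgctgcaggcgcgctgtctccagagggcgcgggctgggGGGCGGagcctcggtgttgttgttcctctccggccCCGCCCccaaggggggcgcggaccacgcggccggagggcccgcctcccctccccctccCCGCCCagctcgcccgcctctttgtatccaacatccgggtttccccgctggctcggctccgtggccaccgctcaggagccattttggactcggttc
Bmpr1a: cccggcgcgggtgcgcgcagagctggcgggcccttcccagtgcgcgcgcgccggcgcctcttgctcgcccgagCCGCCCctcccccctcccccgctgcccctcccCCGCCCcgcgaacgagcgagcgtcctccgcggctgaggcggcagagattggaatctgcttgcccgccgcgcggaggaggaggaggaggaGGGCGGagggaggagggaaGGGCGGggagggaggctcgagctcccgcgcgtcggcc
Bmpr1b: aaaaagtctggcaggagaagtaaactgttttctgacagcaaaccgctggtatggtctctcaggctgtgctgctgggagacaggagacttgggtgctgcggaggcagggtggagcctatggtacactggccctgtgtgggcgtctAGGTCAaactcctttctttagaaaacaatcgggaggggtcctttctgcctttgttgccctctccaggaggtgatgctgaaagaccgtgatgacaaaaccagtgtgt

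The first 3 windows are GC-rich. The G and C content was 85.6% for Acvr1, 72.8% for Acvr2b and 78.8% for Bmpr1a, against a median of 52.4% over 32851 windows. This is not particular to the printed receptors: it was 82.0% for Acvr2a, 78.8% for Acvr1b and 74.8% for 1 start of Tgfbr1. The other Tgfbr1 start had 52.8%, Bmpr2 64.0% and Tgfbr2 58.4%. The GC box occurred 6 times in Acvr1, 3 times in Acvr2b and 4 times in Bmpr1a, in 7 of the receptors' 12 windows in all, and in 32.7% of all windows. The printed Bmpr1b window has 52.8% G and C, no GC box and 1 AGGTCA, the only one among the receptors' 12 windows; 14.0% of all windows hold one. The repeat of 2 such half-sites spaced by 3 bases was found in none of the 12 and in 0.00609% of all windows. These are matches of letters and say nothing of binding.

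Around the receptors, 50 of 53 listed pathway genes could be tested (Bambi, Twsg1 and Id2 could not). None passed in early life against control or in peripubertal against control, where 6 and 3 of 50 had an unadjusted p under 0.05 (limma), against 13.9% and 11.4% of all genes. In peripubertal against early life, 2 of 50 passed, both higher, against 2.63% of all genes, and 10 had an unadjusted p under 0.05, against 23.9%. The median difference of the 50 was 0.01, 0.10 and 0.05 in the 3 comparisons.

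**Figure D4:**
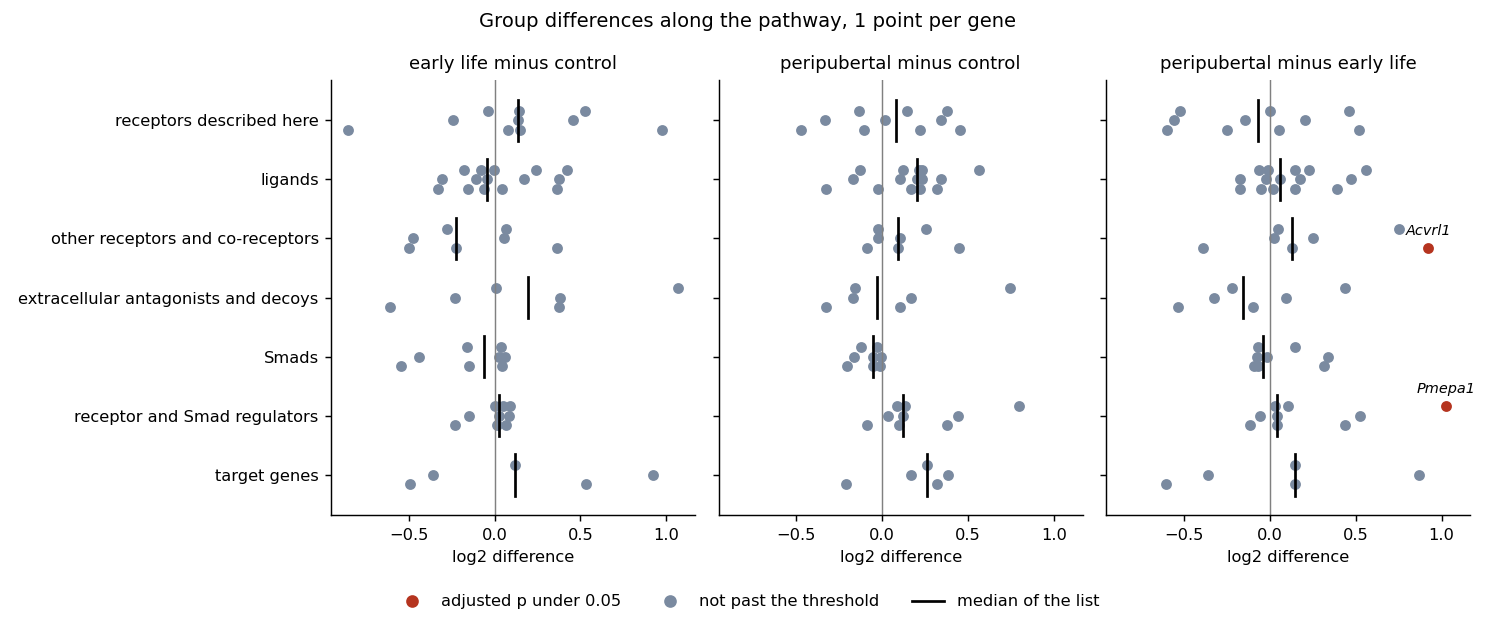
Log2 differences (horizontal axis) of the 10 receptors and of 6 pathway lists in the 3 comparisons, 1 point per gene, with the vertical offset of points carrying no value and black bars for the list medians. The 2 red points, Acvrl1 and Pmepa1 in peripubertal minus early life, passed an adjusted p of 0.05.

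Acvrl1, the endothelial type I receptor for Bmp9, and Pmepa1, a TGF-beta-induced inhibitor of Smad signalling, were the genes that passed. For Acvrl1 the early-life mean was 10.37 ± 0.09 (SD, n = 4). In peripubertal ovaries it was 11.29 ± 0.42 (SD, n = 4), a rise of 0.92 ± 0.21 (limma adjusted p = 0.049), with all peripubertal samples above all early-life ones. Pmepa1 rose by 1.03 ± 0.22 (adjusted p = 0.0424), from 9.62 ± 0.28 (SD, n = 4) to 10.65 ± 0.30 (SD, n = 4). Both calls ended with the loss of single samples: that of Acvrl1 without any 1 of C1, C2, C3, E1, E3, E4, P1, P2 or P4 (limma adjusted p 0.0614 to 0.140) and that of Pmepa1 without any 1 of C1, C2, C3, E1, E3 or P1 to P4 (0.0527 to 0.125). Without the array of P1 and P2 the differences were 0.58 for Acvrl1 (adjusted p = 0.1501) and 0.88 for Pmepa1 (adjusted p = 0.108). Other processing also ended them: the adjusted p of Acvrl1 was 0.0505 to 0.0620 with processed signals, no filter, outlier spots kept, every probe adjusted for, or a trended robust variance, and Pmepa1 gave 0.71 with processed signals (adjusted p = 0.1596) and an adjusted p of 0.0577 with no filter. Eng, the co-receptor of Acvrl1 in endothelium, differed by 0.75 ± 0.21 (adjusted p = 0.0817). If the group names were exchanged, these would be differences from control. The summed endothelial markers were -0.26 to -0.09 in the early-life and -0.01 to 0.38 in the peripubertal group. Of the single endothelial markers Emcn passed in this comparison (0.79 ± 0.17, limma adjusted p = 0.0440). From the other marker lists, 4 of 6 macrophage markers passed too, all higher (limma adjusted p 0.0314 to 0.0363). So did 1 of 8 oviduct epithelium markers, Wfdc2, which was lower (limma adjusted p = 0.0479). The part of these cell types in Acvrl1, Pmepa1 and Eng was not tested.

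Of the 15 ligands, 0 passed in any comparison. Tgfb2, a TGF-beta isoform, had the same order as Acvr2b: 9.25 ± 0.17 (SD, n = 4) in control, 9.61 ± 0.07 (SD, n = 4) after early-life deficiency and 9.60 ± 0.17 (SD, n = 4) after peripubertal deficiency, with differences from control of 0.36 ± 0.11 and 0.35 ± 0.11 (limma adjusted p = 0.250 and 0.294). Bmp4, a theca-derived BMP, differed by 0.56 ± 0.15 between peripubertal and early-life ovaries (adjusted p = 0.0808), and Tgfb1 by 0.39 ± 0.13 (adjusted p = 0.114). The oocyte ligands Gdf9 and Bmp15 differed by 0.24 ± 0.25 and 0.37 ± 0.36 between early life and control. Inhba, the activin subunit, measured 15.41 ± 0.60 (SD, n = 4) in control, 15.66 ± 0.41 (SD, n = 3) after early-life deficiency and 15.73 ± 0.85 (SD, n = 4) after peripubertal deficiency.

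Among the 6 antagonists tested, 0 passed. Follistatin (Fst), which traps activin, measured 14.67 ± 0.14 (SD, n = 4) in control, 15.05 ± 0.37 (SD, n = 4) after early-life deficiency and 14.52 ± 0.21 (SD, n = 4) after peripubertal deficiency, and peripubertal minus early life was -0.53 ± 0.20 (limma adjusted p = 0.155). Its relative Fstl3 went the other way, with early life minus control at -0.61 ± 0.26 (adjusted p = 0.346). Of the 8 Smads 0 passed; the inhibitory Smad6 differed by -0.55 ± 0.21 between early life and control (adjusted p = 0.316), with the groups apart, and Smad4, the common partner, by -0.16 ± 0.08. Of the 5 target genes 0 passed. Id1 and Id3, which BMP signals induce, differed from control by 0.26 ± 0.31 and -0.21 ± 0.19 in peripubertal ovaries, and Tgfbi, a matrix protein induced by TGF-beta, by 0.87 ± 0.33 between peripubertal and early-life ovaries (adjusted p = 0.155).

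**Figure D5:**
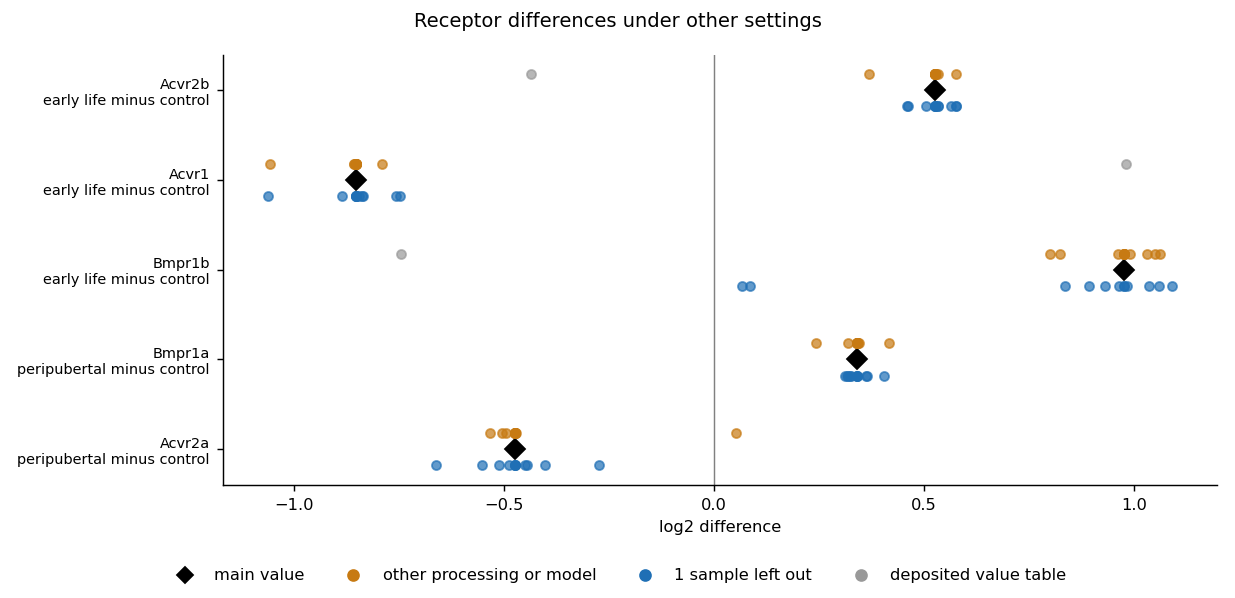
Log2 difference (horizontal axis) of 5 receptor comparisons under the main setting (diamond), other processing or models of the scanner files (orange), 1 sample left out (blue) and the deposited value table (grey), without the exchange of arrays. Acvr2b and Acvr1 kept their sign in all scanner-file settings, and their points of opposite sign are grey, and the Bmpr1b value falls near 0 where the second probe stood for the gene.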

How the data were processed

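Total RNA of 12 ovaries was amplified, dyed (Cy3 or Cy5), per the labels' protocols, and hybridised to 6 arrays. Scanning used version 11.0.1.1 of Agilent's Feature Extraction, per the file headers, with probe positions on build mm9. The authors' deposited scanner files give mean signal and local background as intensity, not normalized, and a processed signal that is background-subtracted and dye-normalized, per the file headers. The value table deposited beside them is in log2 units, each column's median being 0; how the authors made it is not given in the sources used here, and it served only as an alternative and to check sample names. The scale, log2 of background-subtracted signal, was found by setting its columns against the scanner values. Its 4 peripubertal columns matched no array (best r 0.874 to 0.897) and entered no comparison.

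With R 4.3.3 and limma 3.58.1, intensities went through normexp (offset 50), loess within each array and Aquantile across them, and each channel then entered as log2 values of its own. Outlier spots named by the software, 2.16% to 4.28% per channel, were omitted. A probe needed 4 samples well above background and 2 values in each group, which 23791 met, and a gene was read through its brightest such probe (18559 genes). No receptor value was saturated. A single limma model held the 3 groups and the dye, and took arrays as a random block, whose correlation was 0.288. Adjustment was by Benjamini-Hochberg over all genes, at a threshold of 0.05. The other probes of a receptor were tested in a fit of all probes. Nothing says how the replicates were housed beyond 4 females per group, which the series calls biological replicates. Their number, and that of the arrays, limits the precision. The fit was tested on simulated data.

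The receptors and the pathway and marker lists were chosen with earlier results of these data known. Named are all 10 receptors with all probes, and pathway genes with an adjusted p under 0.05 or among the 3 smallest p of their list and comparison; Gdf9, Bmp15, Inhba, Id1 and Id3 were added as values for their role. Likeness is Pearson's r with dye means taken out, and the 2 most alike genes were kept, of which some without a symbol or outside the named receptors are not printed. The alternatives were other background, normalization, filter, probe and model choices, each sample left out and, chosen after seeing the data, the array of P1 and P2 left out.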

Additional observations from a re-analysis of the deposited data

Results flagged for a closer look

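Each receptor probe was looked at for a sample far from the other 3 of its group, in the 44 groups of 4 values; 2 samples stood apart by Dixon's test at its 95% critical value for 4 samples, and chance flags about 1 in 20 groups. On the second probe of Acvr1b, E2 measured 6.83, whereas E1, E3 and E4 lay at 7.18 to 7.19 (ratio 0.958); E2 was also the lowest sample on the tested Acvr1b probe. On a dim probe of Tgfbr1, well above background in 4 of 12 samples, C2 measured 6.97 against 6.48 to 6.56 in the other controls (ratio 0.842).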

How the results depend on the processing

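No receptor difference passed in 25 other settings of the scanner files (750 values), except that of Acvr2b between early life and control without the array block. Over the 13 settings that keep all samples or all but 1 array, Acvr1 early life minus control was -1.06 to -0.79 (limma adjusted p 0.06997 to 0.291), Acvr2b 0.37 to 0.58 (0.0447 to 0.200) and Bmpr1b 0.80 to 1.06 (0.130 to 0.355).

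The number of genes called depended on the setting. In the order early life against control, peripubertal against control, peripubertal against early life and F test, the counts were 4, 50, 489 and 90. Those that moved by over 1.5 times were as follows. With processed signals 19 genes passed in early life against control and 166 in the F test, and with quantile normalization 0 in early life against control. With loess and median centring it was 35 there and 252 in the F test. A filter of 8 of 12 samples gave 0, 14 and, in the F test, 47 genes, and no filter gave 0 and 21 in the comparisons with control. With outlier spots kept these were 1 and 26, without a dye term 35, 80, 738 and 300, and without the array block 113, 158, 2112 and 1224, the last setting with 1 receptor (Acvr2b) in early life against control and 1 in the F test. Without the array of P1 and P2, chosen after seeing the data, they were 0, 85 and 118 in the 3 comparisons. The deposited value table gave 16 in early life against control, and exchanged arrays 489 and 50 in both peripubertal comparisons. With each sample left out in turn, 0 to 114, 0 to 15, 2 to 1585 and 2 to 456 genes passed, and 0 receptors. The highest of each was without E2, and each other sample also moved the counts by over 1.5 times, apart from C4 in peripubertal against early life and P2 in early life against control. The cause was not tested.

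Replicate numbers do not pair the samples across all 3 groups: 3 of 12 same-number correlations were over 0.1 (-0.349 to 0.544). Of 12 samples, 3 correlated best with their own number. The correlations over 0.1 were all of control with early life: 0.222 for C1 and E1, 0.544 for C2 and E2, 0.381 for C4 and E4. C3 and E3 gave 0.071, and pairs with a peripubertal sample gave -0.349 to 0.081. A pairing of control with early life alone was not tested. With the replicate block, 0 genes passed in early life against control, 14 in peripubertal against control and 12 in the F test.

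Receptor signs turned 46 times, 27 of them by a move of at least the standard error, given here; the other 19 moves were smaller. With loess and median centring, which moved the median of all genes from -0.02 to -0.14 in early life minus control, Bmpr1a was -0.028 there. Without the array of P1 and P2, Acvr2a was 0.052 and Tgfbr2, then read through its second probe, -0.067 in peripubertal minus control. Bmpr1b in that comparison was -0.21 without C1 and -0.23 without C3, where its other probe stood for it. With exchanged arrays, early life minus control was 0.85 for Acvr1, -0.15 for Acvr1b, -0.53 for Acvr2b, -0.14 for Bmpr1a, -0.97 for Bmpr1b, -0.46 for Bmpr2, -0.14 for Tgfbr1 and 0.24 for Tgfbr2. Peripubertal minus control was then 0.52 for Acvr1, -0.14 for Acvr2b and -0.52 for Bmpr1b, and peripubertal minus early life -0.33, 0.38 and 0.45 for the same genes. In the deposited table, early life minus control was 0.98 for Acvr1, -0.054 for Acvr1b, -0.44 for Acvr2b, -0.063 for Bmpr1a, -0.74 for Bmpr1b, -0.38 for Bmpr2, -0.24 for Tgfbr1 and 0.24 for Tgfbr2. Signal over background limits the dimmer probes, of which 2 were well above it in no sample.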

Other observations

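The 4 columns of the deposited value table that are named for the peripubertal group matched none of the 12 scanner channels, and 4 receptors lay apart there from the 8 columns of the control and early-life samples. On the table's log2 scale with the column median at 0, Bmpr1b measured -3.45 to -1.28 in those 4 columns and 1.86 to 3.65 in the other 8. Bmpr2 measured -0.50 to 1.03 against 2.44 to 4.24. Tgfbr1 and Tgfbr2 lay apart, and lower, within the odd and within the even replicate numbers: Tgfbr1 at -1.90 to -1.35 against -0.88 to -0.39 in odd columns and -3.22 to -2.94 against -2.52 to -1.90 in even ones, and Tgfbr2 at 4.20 to 4.38 against 4.798 to 5.49 in odd columns and 3.11 to 3.14 against 3.43 to 3.96 in even ones. Acvr1, Acvr1b, Acvr2b and Tgfbr3 overlapped between both sets of columns. Bmpr1a lay apart, and lower, in odd columns only (3.07 to 3.29 against 3.50 to 3.68). Acvr2a lay apart, and lower, in even columns only (-0.081 to 0.069 against 0.245 to 0.463). What RNA these columns hold was not tested, and they entered no comparison.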
